A study of Mus musculus with 7 samples.

Results

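The genes described here make cholesterol from acetyl-CoA, sense its level in the cell, or carry it across membranes. They were picked by name, as the rows of the deposited count table whose mouse symbol was one of 28 listed symbols. All 28 were found among 53465 genes, and 27 were among the 15774 genes that passed the filter on low counts. Kidney RNA came from 7 mice of the MRL/lpr strain, which carries a Fas mutation and develops autoimmune kidney inflammation that models human lupus. The treated group is 4 mice given AZD1152, also called barasertib, a drug that blocks the mitotic kinase Aurora B. The controls are 3 mice given vehicle. Both groups share the strain and the tissue, and the labels used here give no dose, schedule, age or sex. The comparison asks how the expression of these genes differed in lupus-prone kidneys with and without the drug.

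Cholesterol synthesis runs in 3 stages. Acetyl-CoA is turned through mevalonate into farnesyl diphosphate, farnesyl diphosphate is joined into squalene and closed into lanosterol, and lanosterol is trimmed and reduced to cholesterol. The transcription factors SREBP-1 and SREBP-2 (Srebf1 and Srebf2) switch on the enzymes when sterols in the endoplasmic reticulum fall. Scap escorts them to the Golgi for cleavage, and Insig1 and Insig2 hold Scap back when sterols are plentiful. The nuclear receptors LXR-alpha (Nr1h3) and LXR-beta (Nr1h2) respond to oxysterols and switch on export through transporters such as Abca1. Tubule cells of the kidney make sterols and also take up filtered protein.

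Values are CPM, the counts of a gene scaled to equal library size, after scaling by the trimmed mean of M values (TMM), from libraries of 14692113 to 17036862 counts. A gene is called when its adjusted p in edgeR's quasi-likelihood test is under 0.05. Markers of the proximal tubule summed to 7993.0 to 10223.9 CPM with vehicle and 13121.1 to 16027.6 CPM with AZD1152, so the libraries carried the RNA of the labelled tissue. Of these 12 markers 6 rose. Of 12 macrophage markers 9 fell, and their sum went from 970.8 to 1334.4 CPM with vehicle to 451.9 to 693.9 CPM with AZD1152. Of 10 T cell markers 6 fell (sums of 89.4 to 140.0 and 46.8 to 65.8 CPM), and of 10 genes of dividing cells 5 fell (50.8 to 55.2 and 14.6 to 27.2 CPM). The 8 markers of B and plasma cells varied widely within both groups (136.4 to 811.5 and 41.0 to 527.5 CPM, median log2 fold change -0.76). The 8 markers of endothelium had a median of -0.04 (535.8 to 703.8 and 594.6 to 666.3 CPM). Adrenal cortex and fat are rich in sterol and lipid genes and lie next to the kidney. Nr5a1 and Cyp11b2 of the adrenal cortex and Adipoq and Lep of fat had 0 counts in all 7 libraries, so that levels up to 0.204 CPM in the smallest library cannot be seen, by counting error alone. The 9 adrenal markers summed to 4.78 to 5.59 CPM with vehicle and 3.76 to 5.69 CPM with AZD1152, most of it Star. The 9 fat markers summed to 42.1 to 64.5 and 40.4 to 78.5 CPM, nearly all of it Fabp4 and Lipe, with the other 7 at or near 0. In whole tissue, fewer cells of a type and less RNA per cell cannot be told apart, and the part of these cell type shifts in the results below was not tested.

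Sqle was lower in the treated kidneys, and the other 26 tested sterol genes did not pass the test. Of the 27 tested genes 1 was called lower and 0 higher by edgeR (1 higher and 3 lower at an unadjusted p under 0.05, 14.8% beside 24.8% of all genes tested). Over all genes edgeR called 7.83%, 4.81% lower and 3.02% higher, beside 3.7% here. That is 1 gene of 27, too few to set the list apart from the background. DESeq2 called 2 of the 27 lower and 0 higher, beside 1183 lower and 950 higher of all 15774 genes. The median log2 fold change (AZD1152 minus vehicle) of the 27 was -0.10, and that of all genes tested was -0.0006. Scaling by library totals moved the 2 medians to -0.25 and -0.15, with 3 of the 27 called lower (Cyp51, Hsd17b7 and Sqle) and 232 higher and 1482 lower over all genes, in place of 476 and 759. On the TMM scale the groups did not overlap for 3 of the 27 (11.1%, beside 22.8% of all genes tested). Sqle and Cyp51 were lower, and Ebp was higher, in every treated mouse than in any vehicle mouse. In counts divided by library totals the Ebp groups overlapped, and those of Sqle and Cyp51 did not. Of the 26 genes that were not called, 25 had a 95% interval of the log2 fold change within 1 of 0 on either side, and 16 had one within 0.5. Msmo1 was the exception to the wider bound, with an interval from -1.09 to 0.15.

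**Figure D1:**
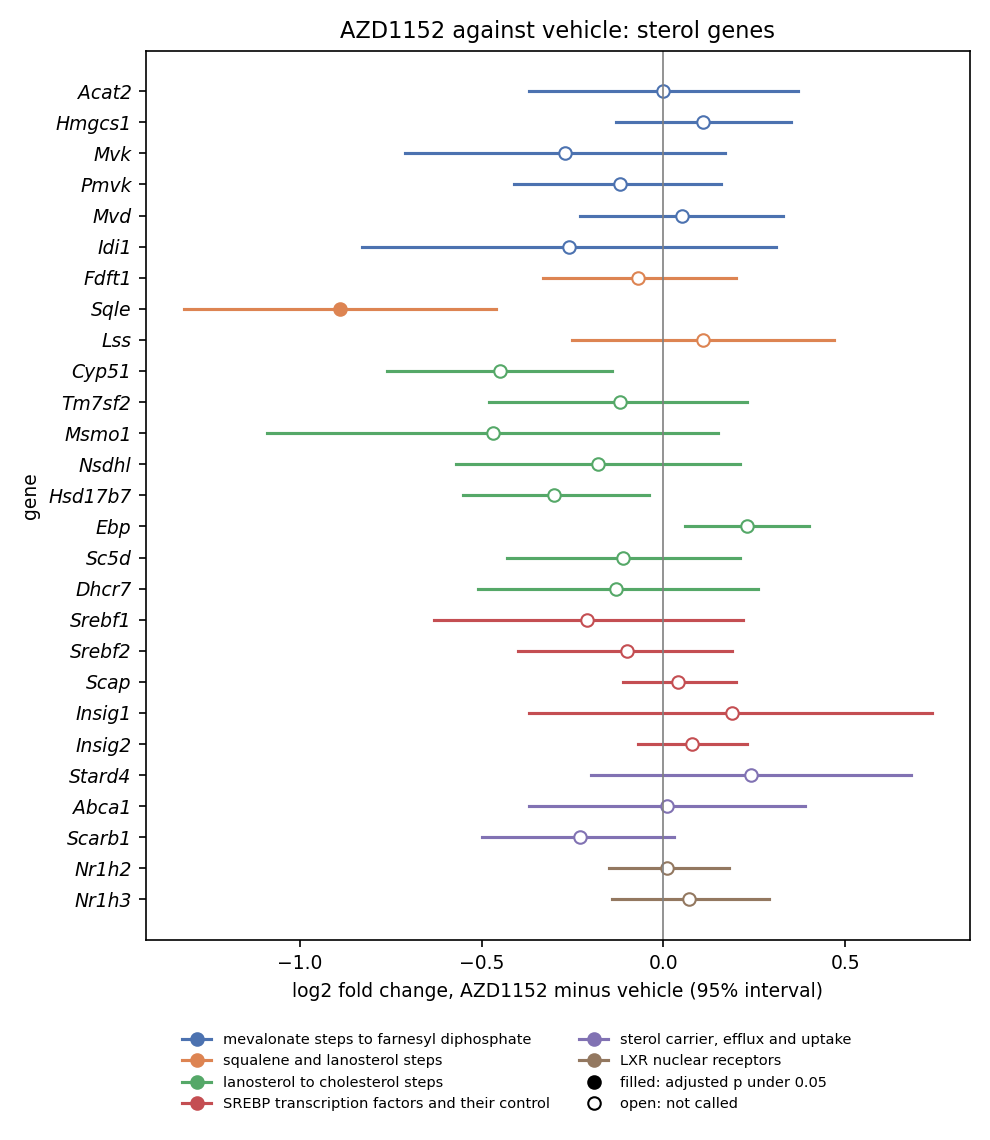
Log2 fold change of each sterol gene, AZD1152 (n = 4) minus vehicle (n = 3), with its 95% interval from the fit across all genes; colours give the gene's role, and a filled point marks an adjusted p under 0.05. Sqle, at -0.89, is the 1 filled point, and the intervals of Cyp51, Hsd17b7 and Ebp also leave out 0.

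Of the enzymes up to farnesyl diphosphate, 0 of 6 tested were called by edgeR (0 at an unadjusted p under 0.05, and 0 by DESeq2), with log2 fold changes from -0.27 to 0.11. Hmgcs1, which condenses acetoacetyl-CoA with acetyl-CoA, had 324.6, 309.2 and 275.4 CPM with vehicle and 305.8, 382.4, 302.1 and 319.3 CPM with AZD1152. These ranges overlapped, with a log2 fold change of 0.11 ± 0.11 (SE; interval -0.13 to 0.35). Acat2, the cytosolic thiolase of the first step, was at 46.8 ± 8.87 CPM in vehicle kidneys (SD, n = 3) and at 46.8 ± 8.17 CPM in treated ones (SD, n = 4). The kinases Mvk and Pmvk, the decarboxylase Mvd and the isomerase Idi1 had log2 fold changes of -0.27, -0.12, 0.05 and -0.26. Of these 6 tested genes Idi1 varied most between vehicle mice, 2.12-fold from 12.3 to 26.0 CPM. Fdps, which builds farnesyl diphosphate, was the gene that failed the filter, with 4 to 13 counts in each library (0.255 to 0.722 CPM). It shares 1124 exonic bases (26.7%) with Gm43738 on the same strand, which itself had 0 counts in all 7 libraries. How shared reads were counted is not given in the sources used here, and its part in the low Fdps counts was not tested.

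Sqle encodes squalene monooxygenase, a rate-controlling step that commits squalene to sterols, and it fell in the treated kidneys. The gene (ENSMUSG00000022351) spans GRCm38 chromosome 15, 59315077 to 59331192, on the plus strand. It had 48.8, 77.4 and 50.1 CPM in vehicle replicates 1 to 3 and 24.0, 32.3, 37.4 and 33.2 CPM in AZD1152 replicates 1 to 4. The highest treated mouse lay below the lowest vehicle mouse, and vehicle replicate 2 stood above the other two vehicle mice. The vehicle mean was 58.8 ± 16.1 CPM (SD, n = 3) and the treated mean 31.7 ± 5.64 CPM (SD, n = 4), a ratio of 0.54. The log2 fold change was -0.89 ± 0.19 (SE; interval -1.32 to -0.46; edgeR adjusted p = 0.0278, and 0.000377 to 0.0679 over 16 alternatives). Without vehicle replicate 2 it was -0.64 and still called, while leaving out vehicle replicate 3 ended the call (edgeR adjusted p = 0.0679), as did leaving out AZD1152 replicate 2 (0.0532) or replicate 4 (0.0631). Neither enzyme beside it in the pathway passed the test. Fdft1, squalene synthase, had a log2 fold change of -0.07 ± 0.12 (SE), and Lss, lanosterol synthase, 0.11 ± 0.16. Fdft1 shares 774 exonic bases (18.3%) with Ctsb on the opposite strand. The difference between Sqle and its neighbours was not tested. Taken against the median of the other 16 tested enzymes in the same library, on the log2 scale and after centring each gene on its mean over the 7 libraries, Sqle stood at 0.26, 0.57 and 0.48 in the vehicle mice. In the treated mice the same difference was -0.67, -0.39, -0.11 and -0.19, so that the groups did not overlap on this scale. Sqle was described because it was called and its groups stood apart, so this is not separate support. On the same scale Cyp51 overlapped, with 0.13, 0.12 and 0.33 in the vehicle mice and 0.01, -0.31, -0.48 and 0.18 in the treated mice. Hmgcs1 also overlapped. Ebp did not, by a narrow gap. It had -0.14, -0.47 and -0.05 in the vehicle mice and 0.31, 0.08, -0.04 and 0.25 in the treated mice.

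Downstream of lanosterol, 0 of 8 enzymes were called by edgeR (3 at an unadjusted p under 0.05, 37.5% beside 24.8% of all genes tested). DESeq2 called 1 of the 8, beside 2133 of all 15774 genes. The estimate was below 0 for 7 of 8, beside 7901 of all 15774 genes, with a median of -0.15. Without vehicle replicate 2 it was below 0 for 3 of 8 (Cyp51, Hsd17b7 and Msmo1), and Dhcr7, Nsdhl, Sc5d and Tm7sf2 turned to values from 0.04 to 0.14. Cyp51, the lanosterol demethylase (ENSMUSG00000001467; GRCm38 chromosome 5, 4081145 to 4104746, minus strand), had 215.6, 273.9 and 218.2 CPM with vehicle. It had 182.0, 164.9, 140.1 and 205.1 CPM with AZD1152, and AZD1152 replicate 4 came closest to the vehicle range. The log2 fold change was -0.45 ± 0.14 (SE; edgeR adjusted p = 0.0812, and 0.0261 to 0.197 over 16 alternatives). It passed the threshold in DESeq2 (adjusted p = 0.0261), without the filter (0.0405) and with scaling by library totals (0.0286). Cyp51 shares 166 exonic bases (3.76%) with Akap9 on the opposite strand. Ebp, the sterol isomerase (ENSMUSG00000031168; GRCm38 chromosome X, 8185329 to 8193512, minus strand), had 64.7, 66.2 and 60.0 CPM with vehicle and 78.5, 76.0, 67.2 and 76.7 CPM with AZD1152. Its groups stood apart by a narrow gap, at AZD1152 replicate 3, and the log2 fold change of 0.23 ± 0.08 (SE) did not pass (edgeR adjusted p = 0.0989, and 0.0684 to 0.473 over 16 alternatives). Under scaling by library totals the Ebp value was 0.08, and its groups overlapped, with AZD1152 replicate 3 below the vehicle mice. Hsd17b7, a sterol ketone reductase, had -0.30 ± 0.11, and the methyl oxidase Msmo1 had -0.47 ± 0.27 with a 1.97-fold range between vehicle mice. Nsdhl, Tm7sf2, Sc5d and Dhcr7, which carry out the remaining decarboxylation, reduction and desaturation steps, had -0.18, -0.12, -0.11 and -0.13. Tm7sf2 shares 532 exonic bases (12.1%) with Vps51 on the same strand.

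**Figure D2:**
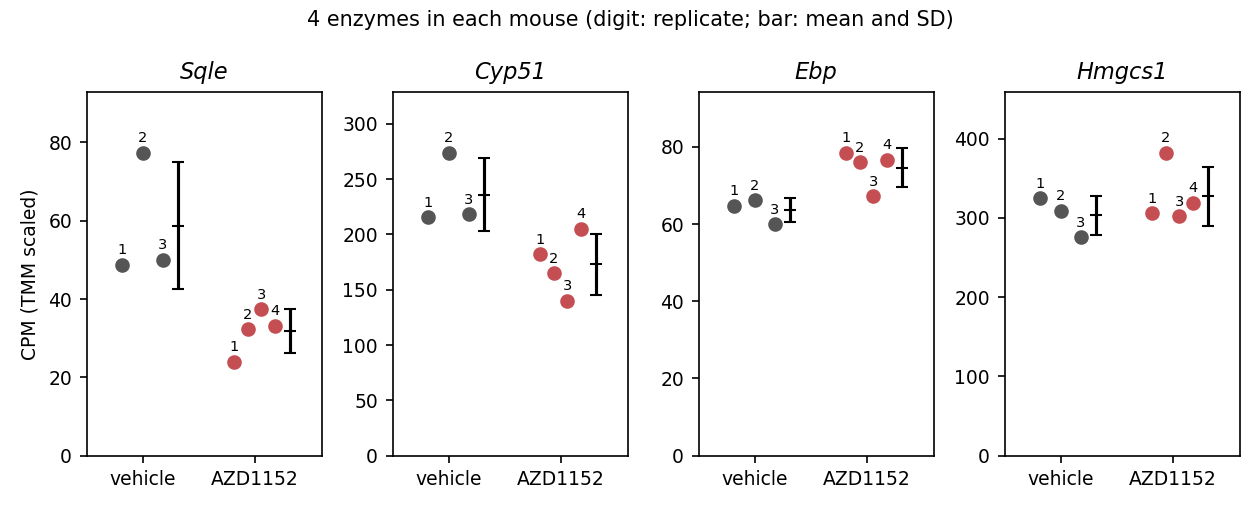
CPM of Sqle, Cyp51, Ebp and Hmgcs1 in each mouse (y axes start at 0; digits give the replicate, and the bar beside each group gives mean and SD). Sqle and Cyp51 of all 4 treated mice lie below all 3 vehicle mice, Ebp lies above them, and the Hmgcs1 values overlap.

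The upstream DNA of Cyp51, Ebp and Hmgcs1 is shown to compare the promoter motifs that these genes carry. On the TMM scale the groups of Cyp51 and Ebp stood apart in opposite directions, and those of Hmgcs1 overlapped. The table of RefSeq promoters (GRCm38.p6) held 23 of the 28 genes in 32 windows. Fdft1, Fdps, Scarb1, Sqle and Stard4 had no entry. Each line gives the 250 bases before the annotated start site, 5′ to 3′ on the gene's strand, with motif letters in capitals. They lie at chr5:4104698-4104947 (minus strand), chrX:8193513-8193762 (minus strand) and chr13:119690101-119690350 (plus strand). The RefSeq start of Cyp51 lies inside the gene span given above, which comes from GENCODE. The end of the Cyp51 window next to that start, with its CCAAT box, therefore falls within this span.
Cyp51: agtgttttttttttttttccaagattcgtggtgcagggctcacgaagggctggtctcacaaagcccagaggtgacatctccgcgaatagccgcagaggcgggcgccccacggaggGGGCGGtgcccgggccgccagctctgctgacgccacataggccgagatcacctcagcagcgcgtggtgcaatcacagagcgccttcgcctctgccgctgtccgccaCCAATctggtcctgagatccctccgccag
Ebp: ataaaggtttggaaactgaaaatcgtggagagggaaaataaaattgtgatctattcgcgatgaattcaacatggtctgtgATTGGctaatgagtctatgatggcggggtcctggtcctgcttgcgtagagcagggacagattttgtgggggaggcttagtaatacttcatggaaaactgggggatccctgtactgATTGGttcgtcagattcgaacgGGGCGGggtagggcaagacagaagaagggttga
Hmgcs1: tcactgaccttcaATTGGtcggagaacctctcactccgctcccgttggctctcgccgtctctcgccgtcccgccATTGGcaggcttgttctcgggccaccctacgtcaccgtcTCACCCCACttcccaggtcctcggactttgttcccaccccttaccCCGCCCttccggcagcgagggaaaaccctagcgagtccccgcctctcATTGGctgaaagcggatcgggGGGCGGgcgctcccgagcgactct
Motifs were searched on both strands as the sterol response element core TCACNCCAC, the CCAAT box (CCAAT, bound by NF-Y), the GC box (GGGCGG, bound by Sp1-type factors) and the E box (CACGTG). SREBP is known to act beside NF-Y or Sp1 at its targets. Hmgcs1 held the sterol response element core, starting 137 bases before the start site, with 3 CCAAT boxes and 2 GC boxes. Cyp51 held 1 CCAAT box and 1 GC box, and Ebp 2 and 1. The CCAAT box was in 59.4% of the 32 windows and in 33.8% of 32851 windows of all genes, and the GC box in 71.9% and 32.7%. The E box was in 18.8% and 6.02%, and the sterol response element core in 3.12% (the Hmgcs1 window alone) and 1.05%. Only these letters were searched for that element, so windows without them may hold another form of it. Among the 15 matched enzymes 14 had a CCAAT box, with Acat2 as the exception, and 14 a GC box, with Pmvk as the exception. Cyp51 and Ebp held both boxes, as did most of the matched enzymes. The part of these boxes in the direction of either gene was not tested. A match of letters is a description of the window and not a bound site.

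Genes that control the pathway did not pass the test. Of 5 tested, 0 were called by edgeR, with 0 at an unadjusted p under 0.05 and 0 by DESeq2. Srebf2, the factor that acts mainly on sterol synthesis, had 124.6, 166.7 and 117.8 CPM with vehicle and 117.1, 146.1, 120.7 and 124.7 CPM with AZD1152 (log2 fold change -0.10 ± 0.13, SE). Its groups overlapped, and vehicle replicate 2 was again the highest. Srebf1, which acts more on fatty acid synthesis, averaged 83.4 CPM with vehicle and 72.2 CPM with AZD1152 (-0.21 ± 0.19). Scap and Insig2 varied little between mice. Scap ran from 65.5 to 75.6 CPM over the 7 libraries (0.04 ± 0.07), and Insig2 from 47.2 to 53.7 CPM (0.08 ± 0.07). Insig1, itself a target of SREBP, ranged 1.91-fold between vehicle mice and 1.61-fold between treated mice, with 61.4 CPM in vehicle replicate 2 and 62.4 CPM in AZD1152 replicate 2. Its log2 fold change was 0.19 ± 0.25 (SE; interval -0.37 to 0.74), which leaves its direction unresolved.

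Sterol carriers and receptors also overlapped between groups. Of the 3 genes 0 were called by edgeR, with 0 at an unadjusted p under 0.05 and 0 by DESeq2. Stard4, a cytosolic sterol carrier, had 86.7, 117.6 and 78.0 CPM with vehicle and 86.6, 146.6, 115.5 and 95.3 CPM with AZD1152 (log2 fold change 0.24 ± 0.20, SE). AZD1152 replicate 2 was the highest. Abca1, which exports cholesterol to apolipoprotein A-I, averaged 64.9 ± 6.29 CPM with vehicle and 65.3 ± 15.3 CPM with AZD1152. Scarb1, the receptor for high-density lipoprotein (SR-B1), averaged 21.7 ± 2.6 and 18.4 ± 1.5 CPM (-0.23 ± 0.12; interval -0.50 to 0.03). The log2 fold changes of Abca1 and Nr1h3 were 0.01 ± 0.17 and 0.07 ± 0.09. Macrophages are among the cells that express both, and 9 of 12 macrophage markers fell in these libraries. The part of that fall in either value was not tested. Nr1h3 ran from 44.1 to 57.7 CPM, and Nr1h2, which most cells make, from 82.1 to 93.7 CPM (0.01 ± 0.07). Both LXR genes gave intervals within 0.5 of 0, and edgeR called 0 of the 2 (0 at an unadjusted p under 0.05, and 0 by DESeq2).

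Much of the spread was shared between genes, in a pattern that was noticed after the values were seen. Vehicle replicate 2 was the highest of the 3 vehicle libraries for 16 of 17 tested enzymes (94.1%), beside 36.8% of all genes tested. It was the highest of all 7 libraries for 15 of 17 (88.2%), beside 12.5% of all genes. The exceptions were Hmgcs1, which peaked in AZD1152 replicate 2, and Ebp, which peaked in AZD1152 replicate 1. On the log2 scale the median enzyme in vehicle replicate 2 lay 0.38 above its mean over the 7 libraries, while the other libraries had medians from -0.16 (vehicle replicate 3) to 0.05 (AZD1152 replicate 2). Among treated mice AZD1152 replicate 2 was highest for 9 of 17 enzymes (52.9%, beside 30.2% of all genes) and AZD1152 replicate 1 was lowest for 9 (27.6% of all genes). Without vehicle replicate 2 the median log2 fold change of the 27 sterol genes turned from -0.10 to 0.07, and 19 of the 27 kept their sign. The small negative median therefore rests on that library, while Cyp51 stood at -0.32 and Sqle at -0.64 without it.

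**Figure D3:**
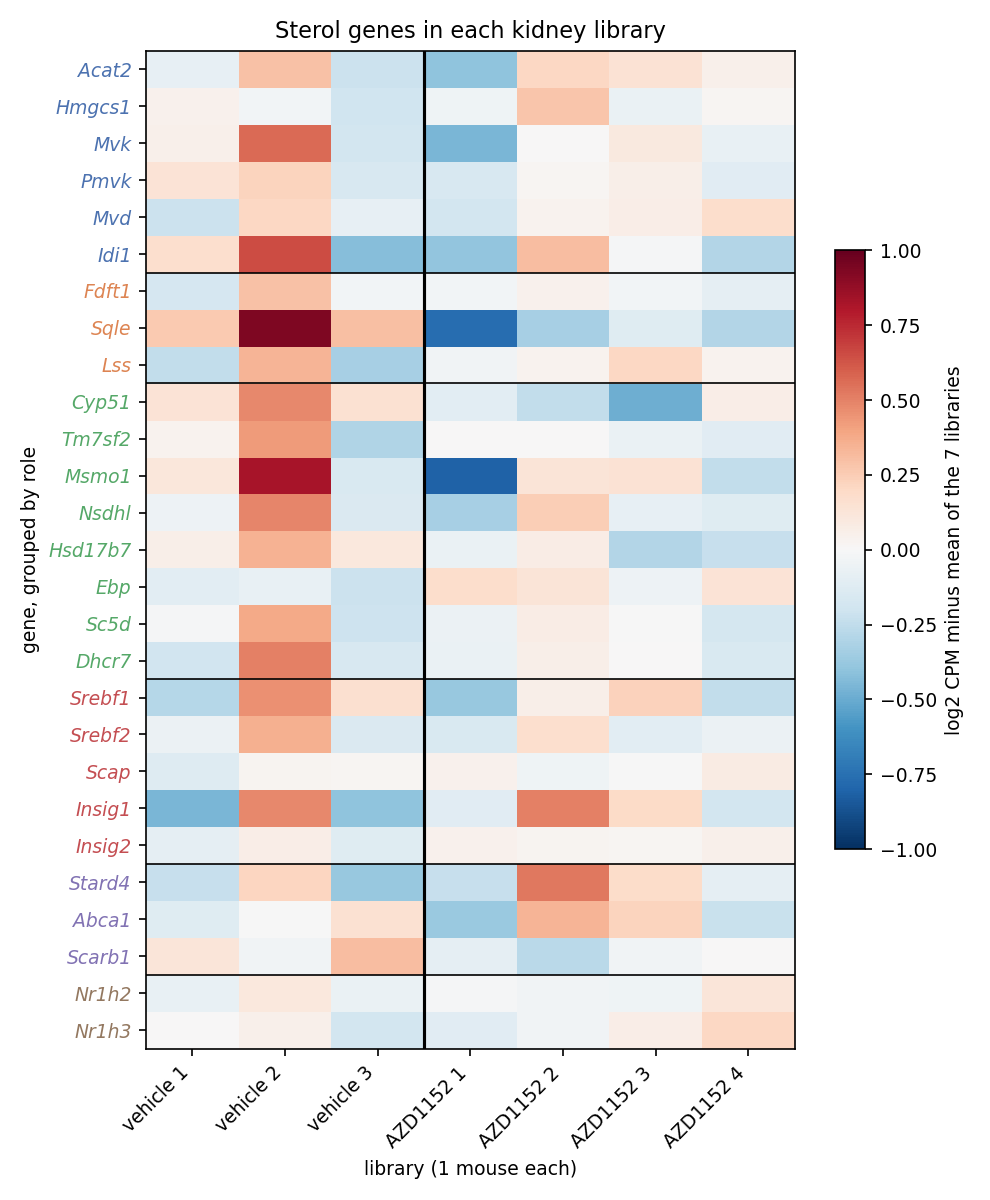
Log2 CPM of the 27 tested sterol genes in each library, minus the gene's mean over the 7 libraries (red above, blue below; rows are grouped by role and coloured as in the plot of fold changes). The column of vehicle replicate 2 is red for 15 of the 17 enzymes; the Sqle row is red in the 3 vehicle columns and blue in the 4 AZD1152 columns.

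Levels per length were compared between genes as CPM per kilobase of exon, with all annotated exons of a gene merged, which lowers the value of genes with long, rarely used exons. In vehicle kidneys Hmgcs1 (66.0 ± 5.47; SD, n = 3) and Cyp51 (53.4 ± 7.47) had the highest levels. Their ranges overlapped, but Hmgcs1 lay above Cyp51 within each vehicle library. Ebp (27.6 ± 1.39), Nsdhl (25.9 ± 6.45) and Nr1h2 (25.6 ± 1.85) followed, with overlapping ranges. Within each vehicle library Ebp lay above Nr1h2, while the place of Nsdhl changed between libraries. Srebf2 stood at 19.0 ± 3.68 and Srebf1 at 14.8 ± 3.73, and Insig2 (14.3 ± 1.00) and Insig1 (13.7 ± 5.36) did not differ beyond their spread. Sqle stood at 10.6 ± 2.91 with vehicle and 5.72 ± 1.02 with AZD1152. Scarb1 (2.55 ± 0.306) and Lss (2.38 ± 0.634) were the lowest of the tested genes, and Fdps was at 0.135 ± 0.0567.

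**Figure D4:**
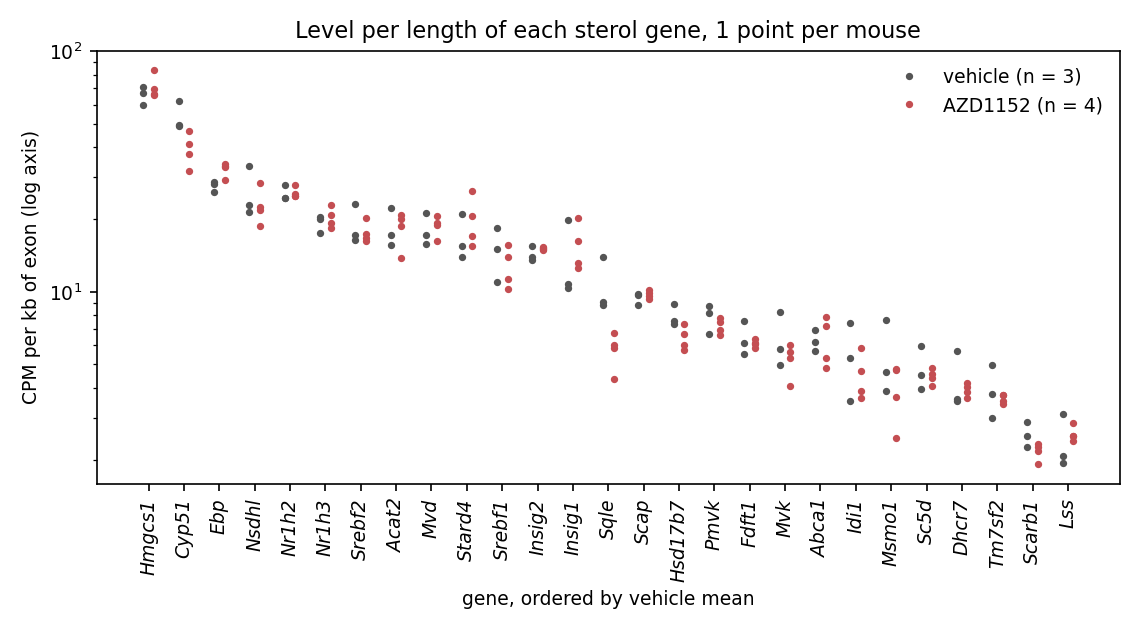
Level of each tested sterol gene as CPM per kilobase of exon (log axis), 1 point per mouse, ordered by the vehicle mean (vehicle n = 3, AZD1152 n = 4). Levels run from about 66.0 for Hmgcs1 to 2.38 for Lss, and Sqle is the gene whose treated points sit farthest below its vehicle points.

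Genes around the pathway were taken from 6 lists of 64 genes, of which 62 were tested. Of these, 7 rose and 2 fell (14.5% called, beside 7.83% of all genes tested). The lists were chosen with earlier results of these data known, so this share is a description and does not set them apart from the background. In the list for the fatty acid arm of SREBP 2 of 11 rose and 0 fell (median -0.09). Gpam, which starts glycerolipid synthesis, had 82.8, 73.6 and 67.9 CPM with vehicle and 133.0, 126.9, 113.3 and 114.6 CPM with AZD1152 (0.71 ± 0.09, SE; edgeR adjusted p = 0.00951). Acss2, which makes acetyl-CoA from acetate, rose by a log2 value of 0.36 ± 0.08, with means of 94.0 ± 4.51 and 120.5 ± 8.44 CPM (edgeR adjusted p = 0.0286). The groups did not overlap for either gene. The 11 genes ranged from -0.85 to 0.71, so the list did not move one way. The 12 proximal tubule markers, 6 of which rose, had log2 fold changes from 0.28 to 1.38.

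Of genes for lysosomal release, storage and oxysterols, 2 of 15 rose and 1 fell (median -0.18). Lipa, the lysosomal lipase that frees cholesterol from its esters, had 170.6, 205.9 and 117.9 CPM with vehicle and 264.5, 296.7, 295.0 and 261.8 CPM with AZD1152 (0.76 ± 0.17, SE; edgeR adjusted p = 0.0304). Every treated mouse lay above every vehicle mouse, and vehicle replicate 3 was the lowest. Cyp27a1, the mitochondrial sterol 27-hydroxylase, had 30.2, 30.4 and 28.9 CPM with vehicle and 43.0, 42.3, 43.1 and 46.3 CPM with AZD1152 (0.55 ± 0.07; edgeR adjusted p = 0.00951). Both groups were tight. Soat2, an enzyme that esterifies cholesterol, was scarce, with 3 to 24 counts a library, and fell from 1.25 ± 0.125 to 0.411 ± 0.183 CPM (edgeR adjusted p = 0.0388). In 3 more lists 1 gene each rose. Vldlr, a receptor for very-low-density lipoprotein, had 96.6, 110.0 and 90.1 CPM with vehicle and 131.2, 181.2, 139.6 and 128.0 CPM with AZD1152 (1 of 8 lipoprotein receptors and adaptors; 0.55 ± 0.13; edgeR adjusted p = 0.0393). Pgrmc1, a heme-binding membrane protein, rose by a log2 value of 0.31 ± 0.08 (1 of 10 genes of SREBP processing and degradation; edgeR adjusted p = 0.041). Dhdds, of dolichol synthesis, rose by 0.33 ± 0.07 (1 of 11 genes of isoprenoid branches; edgeR adjusted p = 0.0312). Among LXR-responsive genes 1 of 7 fell and 0 rose. That was Arl4c, a small GTPase, which went from 31.3 ± 2.36 to 20.1 ± 2.77 CPM (-0.64 ± 0.12; edgeR adjusted p = 0.0206).

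The calls for these 9 genes differed in how far they held. Gpam kept its call in all 16 alternatives, and Cyp27a1 in 15 of 16. Leaving out 1 library ended the call of Pgrmc1 and Dhdds in 7 of 7 cases, of Soat2 in 6, of Acss2 and Lipa in 5, of Vldlr in 4 and of Arl4c in 3. Scaling by library totals ended those of Acss2, Dhdds, Pgrmc1 and Vldlr, and no filter that of Pgrmc1. The direction of all 9 stayed.

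**Figure D5:**
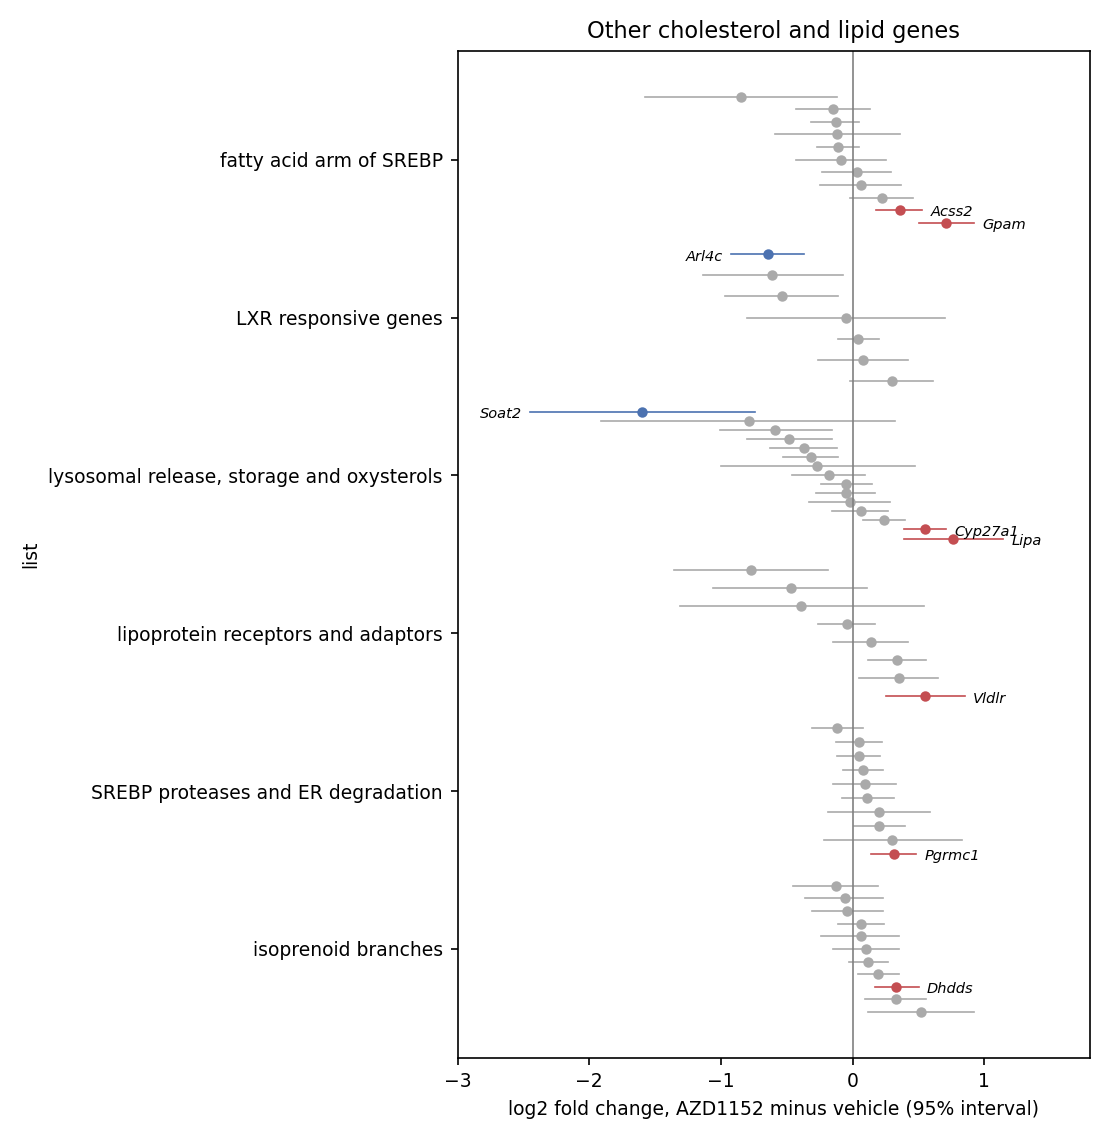
Log2 fold change, AZD1152 (n = 4) minus vehicle (n = 3), with 95% interval for the 62 tested genes of the 6 lists around the pathway (red, called higher; blue, called lower; grey, not called; y axis, list). The 7 red points run from 0.31 (Pgrmc1) to 0.76 (Lipa), and the 2 blue points are Arl4c and Soat2.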

How the data were processed

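Kidney RNA of 7 mice was sequenced, 1 poly(A)-enriched library per mouse, per the labels' protocols. The submitters' processing notes name CASAVA, HISAT2 2.0.5, DESeq2, DESeq and the build GRCm38, without their roles. The authors deposited raw counts per gene. Which program counted the reads, whether it used strand and which annotation it read are not given in the sources used here. Reads of overlapping genes could therefore not be told apart. Columns were matched to mice through the sample descriptions, and groups were taken from the titles. Symbols, coordinates and exon lengths came from GENCODE mouse release 21 (GRCm38), which named 53360 of 53465 genes. No 2 libraries agreed within sampling noise (of 21 pairs the closest had a chi-square of 10.8 for each degree of freedom).

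The filter was filterByExpr, the scaling TMM, and the test the quasi-likelihood F test on group of edgeR 4.0.16, run in R 4.3.3. P-values were Benjamini-Hochberg adjusted over all 15774 genes. Standard errors were derived from the estimate and its F value, and 95% intervals use the test's degrees of freedom. The separate mice of the series text are the replicates, and no batch is labelled. Alternatives were RLE, upper-quartile and total-count scaling, TMM computed after removing immunoglobulin and mitochondrial genes and the top 50 by abundance, no filter, a stricter filter (CPM of at least 1 in 3 libraries, mean of at least 2), DESeq2 1.42.0, limma-voom (limma 3.58.1), the replicate number as a block, and leaving out each library. The fit was tested on simulated data.

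The 28 genes and all lists were chosen with earlier results of these data known. The 28 are not the whole pathway, and other genes of it are not analysed here. Of the 28, those that were called or whose groups did not overlap were described in full. Values in every library were also given for Hmgcs1, Srebf2 and Stard4, which met neither condition. From each list of other genes those called were named, up to 4 by the smallest p. Markers were given as list sums.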

Additional observations from a re-analysis of the deposited data

How the results depend on the processing

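Over 16 alternatives (15 for Soat2, which the stricter filter removed), the count of sterol genes called higher stayed at 0 and the median log2 fold change of the 27 ran from -0.25 (library totals) to 0.07 (without vehicle replicate 2). Genes called lower numbered 1, but 3 with library totals (Cyp51, Hsd17b7 and Sqle), 2 with no filter and 2 with DESeq2 (both Cyp51 and Sqle), 0 with the replicate block, and 0 to 1 on leaving out 1 library. Over all genes 1235 were called, but 2133 by DESeq2, 209 with the replicate block and 223 to 1094 on leaving out 1 library (398 without vehicle replicate 1, 223 without vehicle replicate 3, 750 without AZD1152 replicate 2 and 443 without AZD1152 replicate 4). Library totals moved the median of all genes to -0.15 and called 1714, with 232 higher and 1482 lower, beside 476 and 759. The cause of these shifts was not tested.

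The sign of small differences turned in genes that were not called. With library totals it turned for Abca1 (-0.15), Hmgcs1 (-0.04), Insig2 (-0.07), Lss (-0.04), Mvd (-0.10), Nr1h2 (-0.14), Nr1h3 (-0.07) and Scap (-0.11). With upper-quartile factors it turned for Abca1 (-0.01) and Nr1h2 (0.00), with the stricter filter for Abca1 (-0.01) and with limma-voom for Abca1 (-0.02). Acat2 stood at 0.00 with RLE factors, no filter and DESeq2, and Nr1h2 at -0.02 with the replicate block. On leaving out 1 library the values ran from -0.13 to 0.12 for Abca1, -0.10 to 0.16 for Acat2, -0.24 to 0.14 for Dhcr7, -0.16 to 0.07 for Fdft1, -0.50 to 0.03 for Idi1, -0.02 to 0.35 for Lss, -0.04 to 0.18 for Mvd, -0.04 to 0.08 for Nr1h2, -0.31 to 0.04 for Nsdhl, -0.23 to 0.07 for Sc5d, 0.00 to 0.07 for Scap, -0.20 to 0.07 for Srebf2 and -0.28 to 0.09 for Tm7sf2.

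The labels do not say whether equal replicate numbers pair the mice. Deviations from the group means correlated at -0.288, 0.209 and -0.119 for numbers 1 to 3, and 1 of 3 vehicle mice matched its own number best. With so few numbers this check can neither show nor exclude pairing. With the replicate block, in which AZD1152 replicate 4 has a level of its own, the Sqle call was lost (edgeR adjusted p = 0.0603), as were those of Acss2, Arl4c, Cyp27a1, Dhdds, Lipa, Pgrmc1 and Soat2, while Gpam and Vldlr stayed called. The 3 widest intervals ran from -1.09 to 0.15 for Msmo1, -0.83 to 0.31 for Idi1 and -0.37 to 0.74 for Insig1.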

Other observations

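The 6 lists around the pathway were chosen with earlier results of these data known, so shares over them are a description only. The share of genes whose groups did not overlap on the TMM scale differed between the 6 lists, beside 22.8% of all genes tested. It was 53.3% of 15 genes for lysosomal release, storage and oxysterols (3 higher and 5 lower with AZD1152) and 45.5% of 11 genes of isoprenoid branches (5 higher and 0 lower). It lay near the background for the fatty acid arm of SREBP (27.3%) and for lipoprotein receptors and adaptors (25.0%). It lay below it for LXR-responsive genes (14.3%) and for SREBP processing and degradation (1 of 10 genes). The share at an unadjusted edgeR p under 0.05 ranked the lists differently, beside 24.8% of all genes tested. It was 3 of 7 LXR-responsive genes (42.9%, 0 higher and 3 lower) and 4 of 8 lipoprotein receptors and adaptors (3 higher and 1 lower). For lysosomal release, storage and oxysterols it was 8 of 15, and for isoprenoid branches 4 of 11. For the fatty acid arm it was 3 of 11, and for SREBP processing 2 of 10. The 5 isoprenoid genes whose groups did not overlap were Dhdds, Nus1, Pdss2, Coq2 and Fnta, and 4 of them were not called. They are named here after their values were seen. TMM factors were 1.036 to 1.114 in the vehicle libraries and 0.9209 to 0.9718 in the treated ones. In counts divided by library totals the groups of Nus1, Pdss2, Coq2 and Fnta overlapped, and those of Dhdds did not. The shares of all genes and of the other lists were not counted on that scale. The 12 macrophage markers and 12 proximal tubule markers moved in opposite directions in the same libraries, with median log2 fold changes of -1.0 and 0.68, and their part in these values was not tested.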
